A study of Homo sapiens with 8 samples.

Results

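ORCA, also called LRWD1, was mapped in U2OS cells synchronised at mid G1 by sequencing of immunoprecipitated chromatin (ChIP-seq), and its sites are set here against stretches of methylated DNA in the same cell line. The members are the ORCA peaks of the mid G1 list on chromosomes 1 to 22, 10306 of the 98024 peaks in all 4 deposited lists and of the 10382 in the mid list. They were divided by position alone: a mid peak belonged to the overlapping group if 1 bp or more of it lay in a peak of methylated DNA immunoprecipitation (MeDIP). Of the 10306 mid peaks, 5012 overlapped a MeDIP peak and 5294 did not. That is 48.6% of the list (95% Wilson interval 47.7 to 49.6), the background against which each subgroup below is read. When the widest 5% of the mid and MeDIP lists were left out, it was 32.2%.

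U2OS is a human osteosarcoma line. The series also holds ORCA ChIP-seq at early and late G1, an input for each immunoprecipitation, and MeDIP from U2OS cells with no cell cycle stage in the labels. Each condition is 1 sample, so no difference could be set against the spread between replicates, and no test between samples was run. The ORCA antibody, the way of synchronising the cells and the read depth are not stated in the labels. Intervals are for counting error alone, since peaks of 1 list, often close neighbours, are not replicates.

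ORCA is a WD-repeat protein that binds the origin recognition complex, the machine that marks where DNA replication can start and on which the replicative helicase is loaded during G1. It is known for its place at heterochromatin, where it associates with repressive histone methylation and with methylated CpG, and heterochromatin is commonly replicated late. MeDIP pulls down fragments with an antibody to methylated cytosine, so a MeDIP peak marks DNA that is both methylated and rich enough in CpG to be captured. A stretch without a MeDIP peak may still carry methylated cytosines at low CpG density.

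Most mid peaks that met a MeDIP peak were covered by it along their length rather than touched at an edge. Of the 5012 overlapping mid peaks, 2782 (55.5%, interval 54.1 to 56.9) were covered by MeDIP over their whole length, and 4271 (85.2%) over at least 50% of it. A contact of under 50 bp was rare, at 65 peaks (1.30%). The median overlap was 580 bp, with quartiles of 438 and 873 bp and a range from 1 to 18251 bp. Summed over bases, 3.84 of the 4.89 Mb in overlapping mid peaks lay under MeDIP (78.6%), and 44.0% of the 8.73 Mb in all mid peaks did.

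Most overlapping mid peaks met 1 MeDIP peak, usually a wider one. A single MeDIP peak was met by 4595 of the overlapping mid peaks (91.7%), 2 were met by 373 and 3 or more by 44. A MeDIP peak that held several mid peaks enters these 4595 pairs once for each, so wide shared stretches can count repeatedly. The MeDIP peak was the wider of the pair in 3932 (85.6%). Over all pairs its width was a median of 2.52 times that of the ORCA peak. The ORCA peak was nested in the MeDIP peak in 2782 pairs, at median widths of 591 and 2432 bp. The reverse nesting, a MeDIP peak within an ORCA peak, occurred in 240 pairs (5.22%), where the median ORCA width was 1486 bp and the median MeDIP width 696 bp. The other pairs crossed a MeDIP edge, 814 at the lower and 759 at the upper coordinate. The midpoints lay a median of 382.5 bp apart.

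Methylated cover was highest at the centre of mid peaks and fell over a few kb. The midpoint lay inside a MeDIP peak for 41.3% of the 10306 mid peaks. Positions at 0.5 kb from the midpoint, both sides pooled, were covered in 36.7% of cases, at 1 kb in 29.4%, at 2 kb in 23.6%, at 5 kb in 20.03%, at 10 kb in 18.2% and at 50 kb in 14.7%. The cover at the centre thus stood above that of the surroundings of the same peaks. Mid peaks without MeDIP overlap had flat surroundings at a lower level, with 8.48% covered at 2 kb, 9.13% at 10 kb and 8.30% at 50 kb. Their own centres are free of MeDIP by definition.

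**Figure D1:**
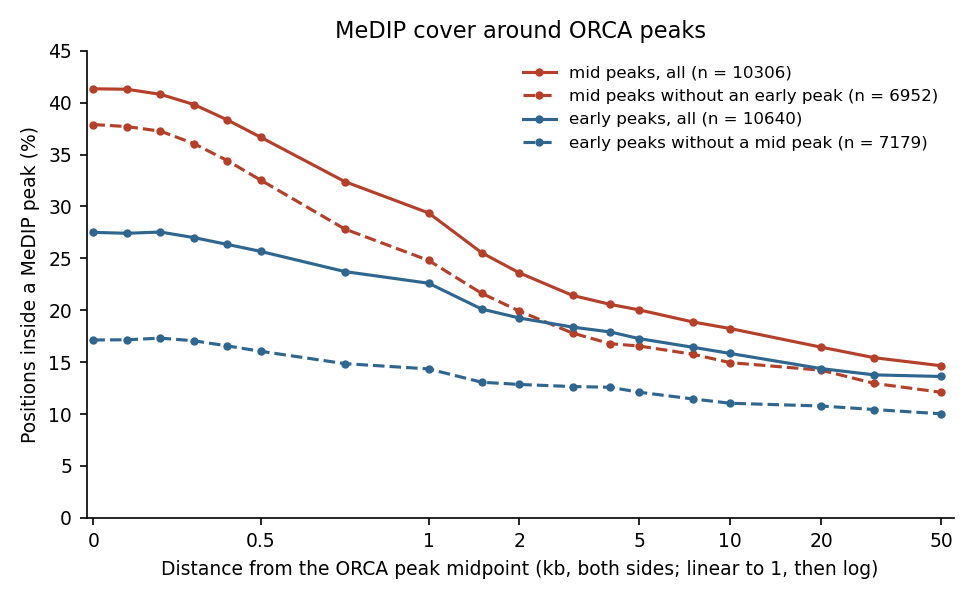
MeDIP cover (percent of positions inside a MeDIP peak, vertical axis) against the distance from the midpoint of ORCA peaks in kb, both sides pooled, linear to 1 kb and then logarithmic. Lines stand for all mid (red) and early (blue) peaks, and broken lines for those that overlapped no peak of the other stage. All mid peaks go from 41.3% at the midpoint to 14.7% at 50 kb, and early peaks from 27.5% to 13.6%.

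Mid peaks that missed MeDIP were often near a methylated stretch all the same. Their median distance to the nearest MeDIP peak, from edge to edge, was 9634 bp (quartiles 1852 and 40729 bp). It was 16563 bp when peaks within 1 kb counted as overlapping. With each list cut to peaks above its median score it was 15469 bp, but that cut left only 36533 MeDIP peaks. Against the full MeDIP list the median distance fell with mid score, from 12238 bp in the lowest quintile to 7325.5 bp in the highest. Of the 5294, 138 (2.61%) lay within 100 bp, 935 (17.7%, interval 16.7 to 18.7) within 1 kb and 2685 (50.7%) within 10 kb. A further 679 (12.8%) were more than 100 kb away and 22 more than 1 Mb. The converse distances were longer: MeDIP peaks without ORCA lay a median of 97521 bp from the nearest mid peak, and 14.2% of them lay within 10 kb. The MeDIP list held 73054 peaks on these chromosomes and the mid list 10306, and a longer list shortens the distances to it.

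The 5 mid peaks farthest from methylated DNA were narrow, from 391 to 550 bp, with scores from 53.0 to 84.0. The score is the peak caller's own value per peak, at least 50 in each list and used only to order peaks within a list. The farthest, chr4:60342179-60342569 (hg19, as are all positions), was 391 bp wide with a score of 60.4 and lay 2040325 bp from a MeDIP peak. The next 2 were chr4:60640399-60640807 and chr4:59733066-59733529, at 1742087 and 1670383 bp. The others were chr8:112636601-112637150, at 1648137 bp, and chr21:25179070-25179468, at 1554480 bp. Of these 5, 1 overlapped an early and none a late ORCA peak.

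Mid ORCA peaks sat on the stronger part of the methylated landscape. Of the 73054 MeDIP peaks, 4484 held a mid peak, which is 6.14% (interval 5.97 to 6.31), and this share rose at each decile of the MeDIP list by score. It was 1.71% in the lowest decile, 2.99% in decile 5, 6.53% in decile 8, 11.6% in decile 9 and 23.2% in the highest. Of the 5408 MeDIP peaks with a score of 3100 or more, 1369 held a mid peak (25.3%, interval 24.2 to 26.5), against 4.60% of the others. The median MeDIP score was 1220 for peaks with ORCA and 174 for those without, or percentiles of 84.02 and 48.03 within the list. The score of the ORCA peak was only weakly related to that of its MeDIP peak. Over the 4595 pairs, Spearman's rho between the percentiles was 0.14 and Pearson's r was 0.12. Some of these pairs share a MeDIP peak, and all share both libraries, so the values are descriptions only.

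**Figure D2:**
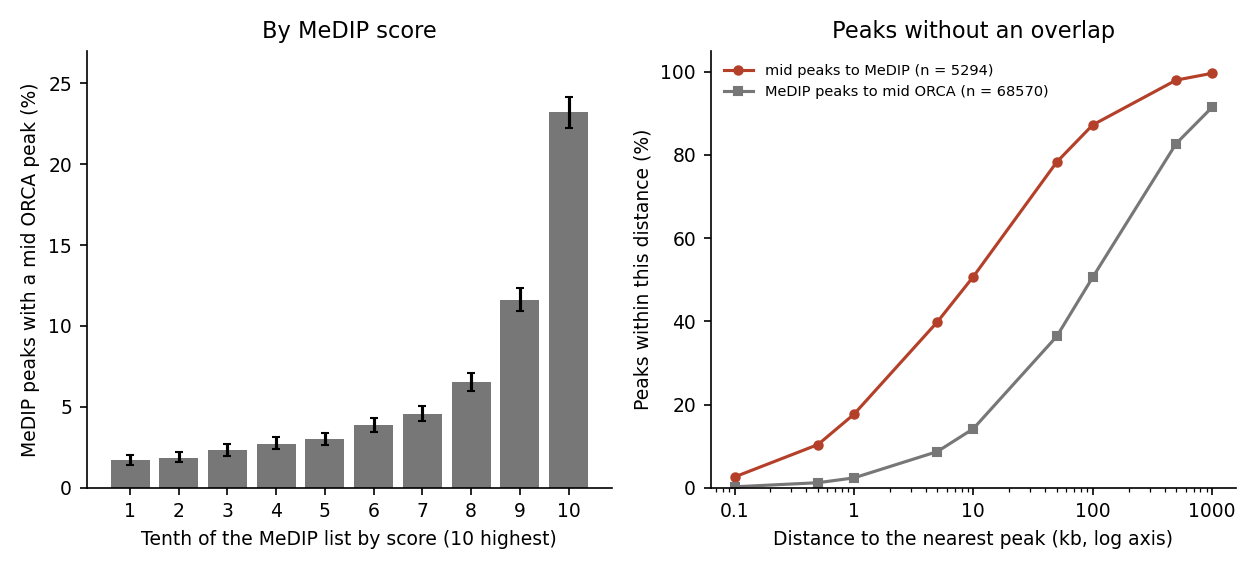
Left, the percent of MeDIP peaks that overlapped a mid ORCA peak in each decile of the MeDIP list by score, with 95% Wilson intervals as bars. It goes from 1.71% to 23.2%. Right, the percent of non-overlapping peaks whose nearest peak of the other list lies within the distance on the log axis in kb: 50.7% of mid peaks have MeDIP within 10 kb, and 14.2% of MeDIP peaks have a mid ORCA peak.

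High-scoring MeDIP peaks were also wide, so the score was also read within classes of width. MeDIP peaks with ORCA had a median width of 1495 bp, against 814 bp without. Of the 2134 MeDIP peaks of 3000 bp or more, 33.8% held a mid peak, against 2.49% of the 9478 under 500 bp. In the 5 classes under 3000 bp the highest quintile by score had the highest share, but the steps below it did not all rise. Among MeDIP peaks of 500 to under 750 bp, 11.3% of the highest quintile by score held a mid peak (interval 9.33 to 13.6) and 0.987% of the lowest (interval 0.778 to 1.25). Among those of 1500 to under 3000 bp it was 12.4% in the lowest quintile (interval 8.35 to 18.1), 9.20% in the middle and 18.7% in the highest (interval 17.7 to 19.7). A median percentile of 54.8 with ORCA stood against 31.3 without at 500 to under 750 bp, and one of 90.3 against 83.2 at 1500 to under 3000 bp. At 3000 bp or more the medians could not show a difference. Both were 96.1, the percentile shared by the MeDIP peaks tied at a score of 3100. The shares there were 50% of 24 peaks in quintile 3 (interval 31.4 to 68.6), 27.9% in quintile 4 (interval 21.1 to 35.8) and 34.1% in quintile 5 (interval 32.0 to 36.2). Quintiles 1 and 2 held only 3 and 5 peaks. Several ORCA peaks could share 1 methylated stretch: 534 MeDIP peaks held 2 mid peaks and 183 held 3 or more, and the latter had a median width of 5284 bp.

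The 5 highest-scoring MeDIP peaks with a mid peak carried ORCA peaks with scores from 51.01 to 182, between percentiles 4.24 and 92.3 of the mid list. The first was chr6:58146718-58149834 with a score of 3230.05, and its ORCA peak, of 1289 bp, had a score of 76.2. Another with the same score, chr7:1473245-1475470, was met by 3 ORCA peaks, with scores of 130, 182 and 108. The next, chr7:284490-286946, lay around an ORCA peak of score 51.01, near the floor of the list. The other 2 were chr9:34379683-34381871 and chr7:27252111-27254339, with ORCA scores of 96.5 and 144. The single ORCA peak was covered over its whole length in 4 of these 5, and at chr7:1473245-1475470 1 of 3 was.

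Overlapping mid peaks were wider and scored higher than the others. Their median width was 696 bp (quartiles 509 and 1125), against 578 bp (quartiles 459 and 820) for those without MeDIP. Their median score was 77.5 (quartiles 61.2 and 118) against 65.1 (quartiles 55.7 and 82.7), and the 2 distributions overlapped broadly. The MeDIP share rose over the quintiles of the mid list by score, at 35.4%, 39.2%, 46.8%, 52.8% and 68.9%, while the median width rose from 465 to 1254 bp. A wider peak has more bases with which to meet another. The share of bases under MeDIP, which does not grow with width in that way, rose as well, from 28.0% in the lowest to 57.8% in the highest quintile.

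The rise with score differed between narrow and wide peaks. Among mid peaks of 1500 to under 3000 bp the MeDIP share was 46.8% in quintile 4 by score and 78.8% in the highest (interval 75.4 to 81.9). Among those of 1000 to under 1500 bp it went from 35.8% in the lowest to 71.4% in the highest quintile. At 500 to under 750 bp it was 53.7% in quintile 4 (interval 50.4 to 56.9) and 46.6% of 251 peaks in the highest (interval 40.5 to 52.8). Among peaks under 500 bp it was 36.1% in the lowest and 43.6% in the middle quintile, and then 21.4% in the highest (interval 12.7 to 33.8). That last group held 56 peaks, 12 with MeDIP, and was singled out after its values were seen. Of these 56 narrow, high-scoring peaks, 40 overlapped an early and 23 a late ORCA peak. They lay on 18 chromosomes, most often on chromosome 16, with 7. The 44 without MeDIP lay a median of 8901 bp from it. In the early list the same class had a share of 18.8% of 165 peaks, beside 19.7% in its lowest quintile.

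**Figure D3:**
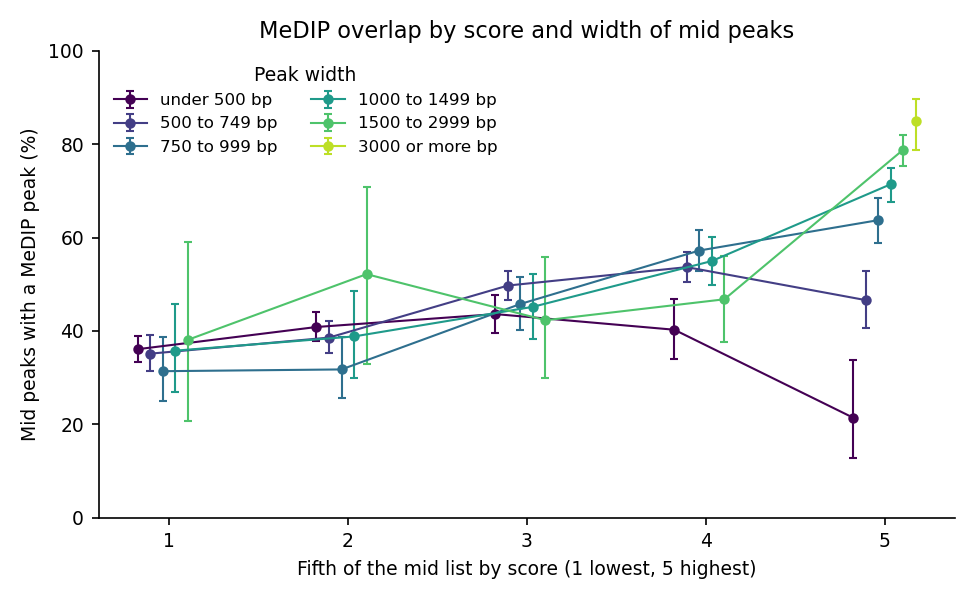
Percent of mid ORCA peaks with a MeDIP peak (vertical axis, 95% Wilson intervals) in the 5 quintiles of the mid list by score (horizontal axis), with 1 line per width class; classes with under 20 peaks are not drawn. The lines lie close together in the lowest quintile and spread in the highest, from 21.4% under 500 bp to 85.03% at 3000 bp or more.

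The peaks of the highest score were evenly divided. Of the 16 mid peaks at the top value of 3100, 8 had a MeDIP peak and 8 did not, while an early peak was present at all 16 and a late one at 15. The first 5 with MeDIP, by position, were chr6:107389812-107392259, chr7:56437795-56440885, chr7:157939459-157942025, chr9:141020449-141023241 and chr13:113761289-113764753. Their overlap ranged from 1261 bp, 45.1% of the peak on chromosome 9, to 3465 bp, all of the peak on chromosome 13. Except on chromosome 9, where it was 598, the MeDIP score at these sites was 3100. The first 5 without MeDIP were chr1:236259941-236261072, chr2:242838231-242839280, chr5:175456493-175458561, chr5:177239045-177240773 and chr8:578961-581552. They lay 3006, 189, 3303, 6970 and 1789 bp from a MeDIP peak. Over all 8 the distance ranged from 189 to 13565 bp.

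The mid peaks with the most methylated bases were very wide. The adjacent peaks chr1:161409833-161429909 and chr1:161429954-161442661 had 18251 and 11016 bp under MeDIP. The peak chr4:190997645-191014407 had 13275 bp under 10 MeDIP peaks. The peaks chr8:144986645-144996346 and chr8:144996381-145005568 had 9084 and 9188 bp, both meeting a MeDIP peak of 19545 bp. All 5 overlapped both an early and a late ORCA peak. Genes and sequence at these positions were not analysed here.

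The next comparison asked how far overlap followed the methylation of the surroundings. The MeDIP cover of the flanks, from 2 to 50 kb beyond each edge of a peak, was 19.05% of bases at the median around overlapping mid peaks (quartiles 6.70 and 40.7) and 3.23% around the others (quartiles 0.471 and 11.2). No MeDIP base was found in the flanks of 219 overlapping peaks (4.37%) and of 1201 others (22.7%). The share of mid peaks with MeDIP rose with the cover of the flanks, from 15.4% of 1420 peaks with none (interval 13.6 to 17.4) through 33.7% at 2 to 5% cover and 56.6% at 10 to 20% to 76.5% of 3184 peaks with over 20%. MeDIP peaks closer than 2 kb to an edge do not enter this measure.

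Density of ORCA peaks went the same way. Of the 2920 mid peaks with no other mid peak within 50 kb, 28.4% overlapped MeDIP (interval 26.8 to 30.1). The share was 51.04% with 2 to 4 neighbours and 70.3% of the 2572 with 10 or more (interval 68.5 to 72.03). The flanks of the last group had a median MeDIP cover of 38.6%, against 1.25% for the solitary peaks. At a flank cover of 5 to 10%, solitary and crowded peaks had shares of 41.8% (interval 36.6 to 47.1) and 38.1% (interval 30.5 to 46.4). At 2 to 5% they had 33.7% and 19.6% (intervals 29.6 to 38.0 and 11.3 to 31.8). At over 20%, a class with no upper bound in which cover need not be equal, they had 68.06% and 78.5% (intervals 60.06 to 75.1 and 76.7 to 80.3).

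Overlap was concentrated towards chromosome ends. Of the 3790 mid peaks within 5 Mb of an end of the peaked part of their chromosome, marked by the outermost peak of all lists, 66.0% had MeDIP (interval 64.4 to 67.5), against 38.6% of the 6516 farther in (interval 37.4 to 39.7). These end zones held 49.9% of all overlapping mid peaks and 24.4% of the others. Without 2 regions where 2031 mid peaks are crowded, the start of chromosome 7 up to 7 Mb and the end of chromosome 8 beyond 140 Mb, the shares were 60.7% and 38.2%. Within chromosome 7, 69.8% of the 1122 mid peaks of the crowded start had MeDIP (interval 67.04 to 72.4), against 44.8% of the other 402 (interval 40.0 to 49.7). Within chromosome 8 the shares were 65.3% of 909 at the crowded end (interval 62.2 to 68.4) and 25.5% of the other 369 (interval 21.3 to 30.2). The median flank cover was 34.6% in the end zones and 3.65% elsewhere. Within classes of flank cover the order was not constant. Under 5% cover the intervals of the end zones and of the rest overlapped in each class. With 5 to 10% of the flanks under MeDIP the share was 37.3% in the end zones (interval 31.9 to 43.01) and 47.9% elsewhere (interval 45.03 to 50.9). With 10 to 20% it was 50.7% (interval 46.1 to 55.3) and 58.9% (interval 56.1 to 61.7). With over 20% it was 78.4% (interval 76.8 to 79.9) and 67.8% (interval 63.9 to 71.5). That class has no upper bound, so cover need not be equal within it. Next to the widest stretch without any peak on a chromosome the share was like that of the interior at large: 36.3% of the 427 mid peaks within 1 Mb of it overlapped MeDIP (interval 31.9 to 41.0), at a median flank cover of 2.03%, against 37.0% of those over 20 Mb from an end.

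By chromosome the share of mid peaks with MeDIP ranged from 26.2% to 69.5%. The 3 highest were chromosome 13 with 98 of 141 peaks (69.5%, interval 61.5 to 76.5), chromosome 7 with 963 of 1524 (63.2%, interval 60.7 to 65.6) and chromosome 17 with 500 of 851 (58.8%, interval 55.4 to 62.02). The 3 lowest were chromosome 21 with 43 of 164 (26.2%, interval 20.1 to 33.4), chromosome 6 with 58 of 204 (28.4%, interval 22.7 to 35.0) and chromosome 3 with 86 of 261 (33.0%, interval 27.5 to 38.9). Neighbours in this order mostly had overlapping intervals, as from chromosome 8 at 53.8% to chromosome 20 at 55.9%. Chromosomes 7, 8, 17 and 22 held 43.2% of the mid peaks, 51.5% of those with MeDIP and 35.3% of those without.

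The 2 extremes differed in where their peaks lay. On chromosome 13, 118 of the 141 mid peaks were in the bin from 110 to 115 Mb, where 90 (76.3%) had MeDIP and the median flank cover was 43.3%. A second group of 6, from 55 to 60 Mb, all had MeDIP. On the rest of the chromosome, in the bins from 15 to 55 Mb and from 85 to 110 Mb, 1 of 16 had MeDIP, as did the 1 beyond 115 Mb. On chromosome 21, 45 mid peaks lay between 10 and 15 Mb, 8 with MeDIP, 33 between 5 and 10 Mb, 12 with MeDIP, and 31 between 30 and 35 Mb, 3 with MeDIP. The median flank covers there were 0, 4.99% and 2.54%. From 40 Mb on, where the median flank cover was 25.9% and 26.9% in the 2 bins, 12 of 28 had MeDIP. These bins were examined after the chromosome shares were seen.

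**Figure D4:**
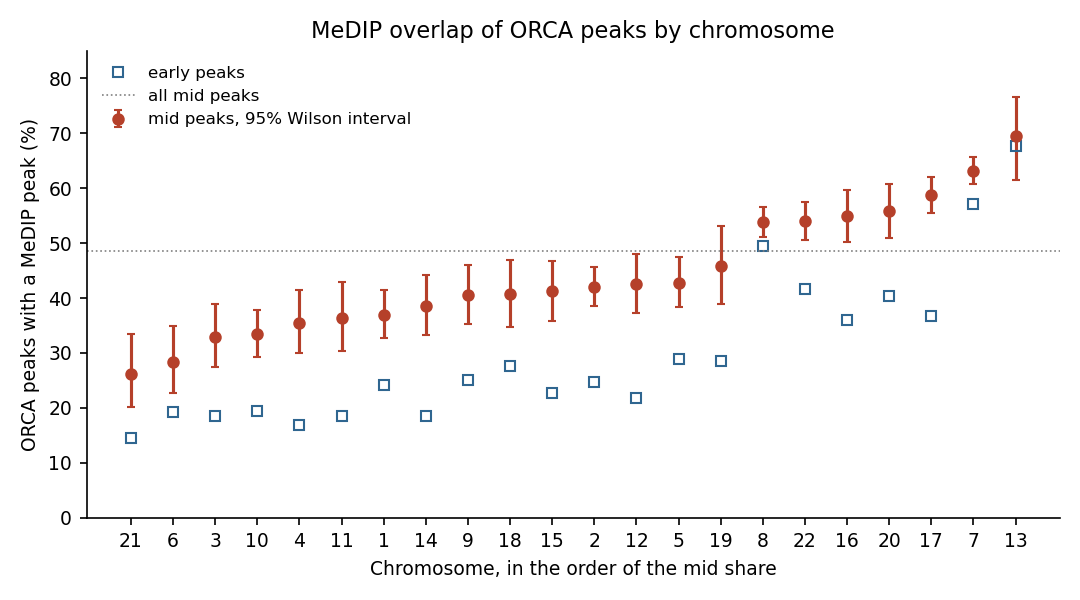
Percent of ORCA peaks with a MeDIP peak on each of chromosomes 1 to 22, ordered by the mid share; red points are mid peaks with 95% Wilson intervals, blue squares early peaks and the dotted line all mid peaks (48.6%). The mid points go from 26.2% on chromosome 21 to 69.5% on chromosome 13 and lie above the early squares on all 22.

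Across the 22 chromosomes the share was set against the number of mid peaks per Mb (Pearson's r 0.47, Spearman's rho 0.54). Against the number of MeDIP peaks per Mb, r was 0.32 and rho 0.34. Against the percent of the chromosome's span under MeDIP, they were 0.35 and 0.39. These are descriptions over chromosomes of unequal counts, and whether they differ was not tested. Single chromosomes departed from each relation. Chromosome 19 had 91.4 MeDIP peaks per Mb and a share of 45.9% over 183 mid peaks. Chromosome 13, with a share of 69.5%, had 15.5 MeDIP and 1.47 mid peaks per Mb. Chromosome 22 had 22.7 mid peaks per Mb and a share of 54.0%.

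Mid peaks with MeDIP were more often peaks of early G1 as well. An early peak was met by 2003 of the 5012 overlapping mid peaks (40.0%, interval 38.6 to 41.3) and by 1351 of the 5294 others (25.5%, interval 24.4 to 26.7), a difference of 14.4 percentage points (Newcombe interval 12.6 to 16.2). The difference fell to 5.89 points without the dense ends of chromosomes 7 and 8 and to 3.86 points when the widest 5% of each list were left out. It grew with width. Under 500 bp it was -1.51 points (interval -3.96 to 1.02), at 500 to under 750 bp 4.14, at 750 to under 1000 bp 9.08 and at 1000 to under 1500 bp 16.7; at 1500 to under 3000 bp an early peak was met by 85.5% of overlapping and 66.5% of other mid peaks. Among the 148 overlapping mid peaks of 3000 bp or more, 144 were also early peaks (97.3%), against 28 of 36 without MeDIP. For late peaks the difference was smaller, with 11.2% of overlapping and 7.86% of other mid peaks meeting one (3.34 points, interval 2.20 to 4.47). At equal width this was not seen throughout. Under 500 bp a late peak was met by 1.96% of overlapping and 3.68% of other mid peaks, and at 500 to under 750 bp by 4.90% and 5.64%. The shares were 14.2% and 13.9% at 1000 to under 1500 bp, and 30.9% and 31.0% at 1500 to under 3000 bp. Overlapping peaks had the higher share at 750 to under 1000 bp (11.7% against 9.81%) and at 3000 bp or more (56.8% against 47.2%). Read the other way, MeDIP was present at 61.5% of the 769 mid peaks met by both other stages (interval 58.02 to 64.9), 59.2% of the 2585 met by early only, 42.3% of the 208 met by late only (interval 35.8 to 49.1) and 43.3% of the 6744 met by neither.

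The early list, of nearly the same length, shows where the mid list stood apart. Of 10640 early peaks, 35.3% overlapped MeDIP, 13.4 points below the mid share (interval 12.03 to 14.7), or 8.88 points below it once the widest 5% of each list were set aside (interval 7.64 to 10.1). Both lists were compared with the same MeDIP sample. The late list, of 1321 peaks, had a share of 47.9%. Mid peaks that met an early peak had MeDIP in 59.7% of cases and early peaks that met a mid peak in 59.9%, a difference of -0.176 points (interval -2.50 to 2.15) between 2 sets that overlap each other by choice. Among peaks that met none of the other list the shares were 43.3% of 6952 mid and 23.4% of 7179 early peaks, 19.9 points apart (interval 18.4 to 21.4). On each of the 22 chromosomes the mid share exceeded the early share, and the interval of the difference lay above 0 on 21, the exception being chromosome 13 (1.91 points, interval -9.49 to 13.5).

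The gap was widest in narrow peaks. Among peaks under 500 bp that met none of the other list, 39.5% of 2588 mid and 18.1% of 3267 early peaks had MeDIP, 21.5 points apart (interval 19.2 to 23.8). At 1000 to under 1500 bp the difference was 10.9 points (interval 4.99 to 16.7). In the widest class, 3000 bp or more, there were 12 mid and 17 early peaks and the difference, -31.4 points, had an interval from -57.9 to 4.82. Among all peaks of 3000 bp or more, mid and early shares were 80.4% and 80.1%.

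The gap was also present within classes of MeDIP cover of the surroundings, of which the highest has no upper bound. In flanks with no MeDIP base, 15.4% of mid and 6.81% of early peaks overlapped MeDIP, and at over 20% cover 76.5% and 69.6%. In each of the 6 classes of flank cover the interval of the difference lay above 0, from 6.88 points (interval 4.64 to 9.11) in the highest class to 14.4 points (interval 10.8 to 17.9) at 5 to 10%. For peaks that met none of the other list, in flanks with no MeDIP base, the shares were 14.2% of 1165 mid peaks and 4.36% of 1421 early peaks. Around the midpoint of such unshared peaks, cover fell from 37.9% to 12.1% at 50 kb for mid and from 17.1% to 10.02% for early peaks.

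**Figure D5:**
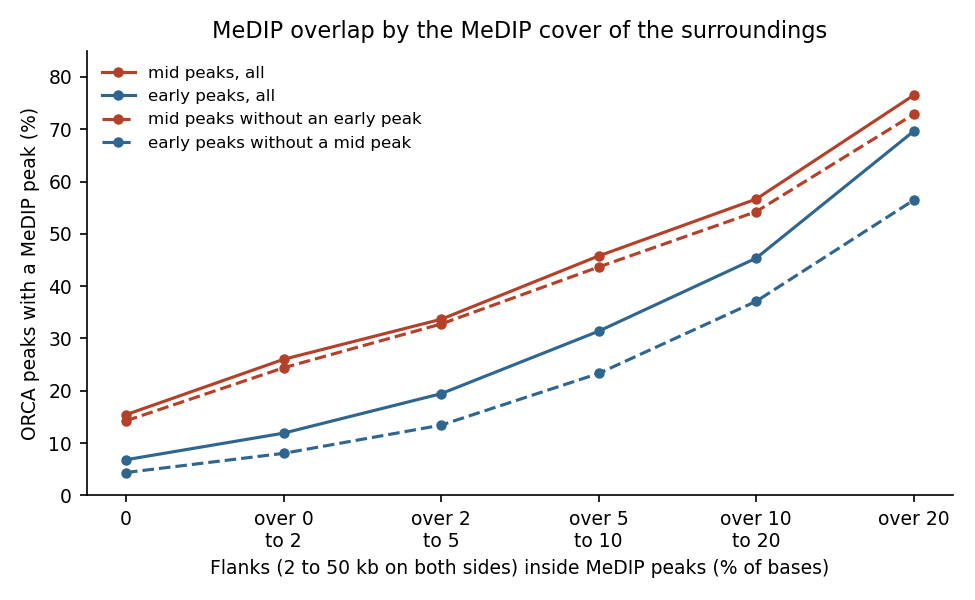
Percent of ORCA peaks with a MeDIP peak (vertical axis) in 6 classes of the MeDIP cover of the flanks, from 2 to 50 kb beyond each edge (horizontal axis), for mid (red) and early (blue) peaks; broken lines are peaks that met none of the other stage. All 4 lines rise, and the mid lines lie above the early ones in each class.

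The methylated stretches met at mid sites without an early peak, of which 88 of 3009 had a late peak, scored close to those at sites shared with early G1. The median MeDIP percentile was 87.7 at the 3009 mid peaks with MeDIP and no early peak, 88.3 at the 2003 with an early peak and 73.7 at the 1680 early peaks with MeDIP and no mid peak. A MeDIP score of 3100 or more was found at 38.1%, 38.3% and 18.8% of these. Among these peaks, all of which overlapped MeDIP, mid peaks without an early peak were wholly covered in 63.6% of cases. The share wholly covered was 43.3% for the wider shared peaks and 44.1% for early peaks without a mid peak. With 1 sample a stage the cell cycle stage and the library cannot be told apart.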

How the data were processed

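ORCA ChIP-seq at 3 stages of G1 and MeDIP-seq in U2OS cells gave 4 deposited peak lists, 1 per sample; the 4 inputs were not analysed here. Reads were trimmed with Trimmomatic and aligned with Bowtie 0.12.7 to GRCh37 (hg19), per the submitters' processing notes. The peak names are of the MACS family; the caller's version, settings, control and depth are not stated in the labels or files. Each deposited list gives start, end and the authors' score per peak, used only within its list; starts are printed from 1. A longer or deeper list raises every overlap with it.

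Peaks on chromosomes 1 to 22 were used. Overlap was at least 1 bp, and the count of overlapping mid peaks equalled that of bedtools 2.31.1. Shares have 95% Wilson and differences Newcombe intervals. Flank cover was the percent of bases from 2 to 50 kb beyond both edges inside MeDIP peaks. Percentiles, quintiles and deciles rank scores within a list. The code was tested on simulated peaks. Python 3.11.15, numpy 2.4.6, pandas 2.3.3, scipy 1.17.1 and matplotlib 3.10.9 were used.

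Named peaks were the 5 mid peaks of highest score with and without MeDIP, the 5 with the most overlapped bases, the 5 farthest from MeDIP, the 5 highest-scoring MeDIP peaks with a mid peak, ties taken by position, and the 3 highest and lowest chromosomes. The members, rules and alternatives were chosen with earlier results of these data known. Genes, gene lists, sequence and base composition were not used here, since the reference tables given are of another build.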

Additional observations from a re-analysis of the deposited data

Results flagged for a closer look

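Mid peaks outside chromosomes 1 to 22 were not part of the comparison. On chromosome X, 10 of 35 mid peaks overlapped a MeDIP peak (28.6%, interval 16.3 to 45.1), and on chromosome Y, 4 of 41 (9.76%, interval 3.86 to 22.5). A count of 3 would give 8.57% and 7.32%, and the Y share, from a count of 4, lies close to it. The X list held 1443 MeDIP peaks and the Y list 120. Positions are those of reads aligned to the reference, so a peak placed on Y does not show that these cells carry a Y chromosome. These shares lie below the 48.6% of chromosomes 1 to 22. They are given as values, and their cause was not tested.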

How the results depend on the processing

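Of the 6 results only the 2 differences could change sign, and neither did under the 6 alternatives. The shares, the distance and the percentile are positive whatever the data. Of the 36 values, 26 moved beyond the counting interval of the reported value. The MeDIP share of mid peaks was 43.5% with an overlap of 50% of the shorter peak and 57.7% with peaks within 1 kb counted. It was 51.2% with each list, MeDIP included, cut to peaks above its median score. Without the widest 5% of peaks it was 32.2%, and without the dense ends 43.9%. In the same order, the median distance of the other mid peaks was 6993, 16563, 15469, 6762 and 12632 bp, and the median MeDIP percentile at mid peaks 86.5, 77.6, 80.02, 80.6 and 86.1. The percentiles were ranked anew within each MeDIP list as cut. Those after the score, width and dense-end cuts are therefore not on the scale of the reported 84.02, and no fall or rise can be read from them. The difference in meeting an early peak was 10.7, 21.2, 11.1, 3.86 and 5.89 points. The bases of overlapping mid peaks under MeDIP were 82.1% at 50% overlap, 68.7% within 1 kb, 73.2% without the widest peaks and 79.7% without the dense ends. The mid minus early difference was 8.88 points without the widest peaks and 16.1 without the dense ends. The 2 overlap rules, the widest-peak cut and the score cut, which left 36533 MeDIP peaks, change what can overlap by construction. For the dense ends the cause was not tested. Taking all sequence names moved none of the 6 results. No replicate could be left out, with 1 sample per group. No paired analysis was possible because each group is 1 sample and no result comes from a test. Depth is not stated in the labels, so a site without a MeDIP or ORCA peak was not called, which does not show that it is absent.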
